A study of Mus musculus with 8 samples.

Results

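The genes described here are 40 mouse genes that act at the DNA replication fork, supply its nucleotides or rebuild chromatin behind it. They were listed by name, as replication factors, with earlier results of these data known. A gene entered when an array probe carried one of its RefSeq transcript accessions, and the brightest such probe stood for the gene. This found 38 of the 40 genes, all of which passed the filter on dim probes, among 14142 genes that passed it of 18316 named. The single-strand binding subunit Rpa1 and the ribonucleotide reductase subunit Rrm2 were not analysed here.

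Liver RNA was measured on 8 one-colour Agilent arrays, 1 for each of 2 genotypes at 0, 24, 36 and 48 h after partial hepatectomy (PHx), surgery after which the remaining liver grows back by cell division. Mxcre+ livers carried the Cre recombinase and are the Survivin-deleted samples of the design, and Mxcre- livers, without it, are its wild type. All mice, in both genotypes, were of strain 129/SV/B6, had undergone irradiation and bone marrow transplantation, had received poly(IC) 2 months later, and were sampled, per the labels, 1 week after poly(IC). In the Mx system Cre is driven by an interferon-responsive promoter, so that poly(IC) switches it on in many cell types and not in hepatocytes alone. Sex is not assigned to single samples in the labels, and age, the genotype of the donor marrow and any pooling of animals are not given in the sources used here. Times were taken from the titles, and a treatment note placing the analysis 1 week after surgery was set aside. Each group had 1 array, so no value below has a replicate error.

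As background, the replication fork copies both strands of DNA at once. Primase and DNA polymerase alpha start each strand, the clamp loader RFC places the ring PCNA on it, and DNA polymerases delta and epsilon extend it, while the GINS complex helps drive the helicase, RPA covers the single strand, and Fen1 and Lig1 join the lagging strand pieces. Nucleotide enzymes feed the fork, and CAF-1, Asf1b, Uhrf1 and Dnmt1 restore nucleosomes and DNA methylation on the new strands. In regenerating liver these genes are known for coming on as hepatocytes enter S phase, and many are known targets of the E2F transcription factors.

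Since most of the listed genes stood higher at 36 and 48 h than before, their promoters were read from RefSeq windows of 300 bases (250 before to 50 after the start, build GRCm38.p6), which 34 of the 40 genes and 32 of the 38 measured genes had. The E2F words TTTCCCGC, TTTGGCGC, TTTCGCGC and TTTGCCGC, on either strand, were in a window of 11 of these 32 genes (34.4%) and of 4.18% of the 11279 tested genes with a window. The word GGCGGGAA, added after the windows had been read and overlapping the first of these, was in 8 (25%) against 4.13%. At least 1 of these words was in 16 of the 32 against 7.18%. CCAAT, on either strand, was in 17 (53.1%) against 42.2%, and the word TTTGAA, part of the element of late cell cycle genes, in 7 (21.9%) against 15.3%. The windows of the listed genes were also richer in G and C (median 63.0% against 59.3%). A match is a description of letters and not a site of binding. Shown are the 150 bases before the start for 4 genes with 1 of the E2F words in that stretch and 3 with GGCGGGAA or its reverse complement, in capitals, and for Pcna and Tk1, which had no such word there and followed different courses in time:
Rfc3 (chr5:151651209-151651358, minus strand): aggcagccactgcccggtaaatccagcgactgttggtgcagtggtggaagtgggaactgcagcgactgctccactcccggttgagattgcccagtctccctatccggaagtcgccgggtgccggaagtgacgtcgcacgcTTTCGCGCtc
Hells (chr19:38930840-38930989, plus strand): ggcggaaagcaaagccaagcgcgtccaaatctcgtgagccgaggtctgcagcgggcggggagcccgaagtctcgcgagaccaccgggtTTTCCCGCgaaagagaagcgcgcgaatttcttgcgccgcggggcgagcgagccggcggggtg
Gins3 (chr8:95633409-95633558, plus strand): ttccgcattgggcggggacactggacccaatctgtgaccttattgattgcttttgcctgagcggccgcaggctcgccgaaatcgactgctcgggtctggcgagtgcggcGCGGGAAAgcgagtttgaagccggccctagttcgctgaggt
Orc1 (chr4:108579304-108579453, plus strand): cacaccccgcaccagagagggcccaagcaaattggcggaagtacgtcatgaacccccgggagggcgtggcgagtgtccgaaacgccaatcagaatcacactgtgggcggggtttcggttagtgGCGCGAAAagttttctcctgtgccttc
Chaf1a (chr17:56040266-56040415, plus strand): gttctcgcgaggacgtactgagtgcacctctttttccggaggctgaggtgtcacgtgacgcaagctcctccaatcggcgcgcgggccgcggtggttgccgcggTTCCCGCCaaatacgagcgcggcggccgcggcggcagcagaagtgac
Prim1 (chr10:128015065-128015214, plus strand): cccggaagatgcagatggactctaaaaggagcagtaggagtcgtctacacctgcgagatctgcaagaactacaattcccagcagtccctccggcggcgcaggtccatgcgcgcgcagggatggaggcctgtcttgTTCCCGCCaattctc
Rrm1 (chr7:102441545-102441694, plus strand): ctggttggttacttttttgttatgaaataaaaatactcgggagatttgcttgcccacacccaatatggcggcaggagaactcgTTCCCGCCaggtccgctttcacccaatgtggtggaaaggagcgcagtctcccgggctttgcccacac
Pcna (chr2:132253181-132253330, minus strand): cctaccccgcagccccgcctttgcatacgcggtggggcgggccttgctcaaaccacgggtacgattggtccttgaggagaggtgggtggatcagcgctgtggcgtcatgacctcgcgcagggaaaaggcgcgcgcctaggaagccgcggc
Tk1 (chr11:117826015-117826164, minus strand): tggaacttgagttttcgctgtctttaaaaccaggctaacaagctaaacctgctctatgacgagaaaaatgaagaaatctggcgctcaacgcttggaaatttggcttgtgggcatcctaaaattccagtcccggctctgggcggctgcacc
In these stretches the word began 10 bases before the start in Rfc3, 15 in Prim1, 27 in Orc1, 41 in Gins3, 47 in Chaf1a, 62 in Hells and 67 in Rrm1.

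Levels are log2 of the scanner's background-subtracted signal relative to the 75th percentile of its own array, and a difference of 1 is 2-fold. Of the 38 genes, 32 were well above background on all 8 arrays. Pola2 and Gins3 were so on 7, Hells and Dbf4 on 6, Pole2 on 4 and Orc1 on 2. No listed gene had a saturated spot. Each array had 43379 spots, 60.2% to 66.0% of them well above background, and the scanner software's own error of a spot's signal was 10.0% to 18.7% for the genes measured on all arrays. The 0 and 24 h arrays shared 1 slide and the 36 and 48 h arrays the other. Slide and the step from 24 to 36 h thus cannot be told apart. Each genotype pair, and the comparisons of 24 with 0 h and of 48 with 36 h, lay within a slide. The 24 h and 0 h arrays differed, however, in Y-linked signal, as given below. The deleted gene Birc5 had levels of -0.20, -0.48, 1.61 and 5.10 in Mxcre- liver at 0, 24, 36 and 48 h, and of -2.75, -3.42, -1.51 and -1.14 in Mxcre+ liver, lower on each Mxcre+ array than on any Mxcre- array. Whether its probe lies within the deleted exons was not examined.

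The comparison of the times asks when these genes came on after surgery. Most of the replication fork and chromatin genes stood above their 0 h level at 36 and 48 h, and at 24 h only Tk1 passed the test. At 36 h against 0 h, 21 of the 38 rose and 1 fell, where 8.1% of all tested genes rose and 8.15% fell. The largest of these rises was that of Uhrf1, a reader of hemimethylated DNA, at 4.99 ± 0.73 (log2, SE; adjusted p = 0.0252), and the one with the smallest adjusted p that of the histone chaperone Asf1b, at 3.17 ± 0.29 (adjusted p = 0.0163). The 38 differences had a median of 1.67 (all tested genes, -0.05), ran from -1.53 to 4.99, and were above 0 for 36 genes, the exceptions being Tk1 and Pold2. At 48 h against 0 h, 19 rose and 0 fell (8.27% and 9.34% of all tested genes), with a median of 1.53. At an unadjusted p under 0.05, 1 listed gene was lower there, as were 2877 of all 14142 tested genes. All 4 arrays of 36 and 48 h stood above all 4 arrays of 0 and 24 h for 30 of the 38 genes, and for 6.12% of all tested genes. The other 8 were Pola2, Pold2, Rpa2, Rpa3, Tk1, Dnmt1, Orc1 and Cdc7. Pole2 passed the filter on dim probes only through its late arrays, where it is high, and so had to differ. Of the 32 genes above background on all arrays, 18 rose at 36 h and 17 at 48 h.

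At 24 h against 0 h none of the 38 rose (limma, 4.59% of all tested genes) and 1, Tk1, fell (5.09% of all tested genes), with a median of 0.08. At an unadjusted p under 0.05, 0 of the 38 were higher, against 2158 of all 14142 tested genes. Between 36 and 48 h none of the 38 rose or fell (0.099% and 0.00707% of all tested genes) and the median was -0.13. At an unadjusted p under 0.05, 2 of the 38 differed there, against 1278 of all 14142 tested genes. The 2 were the origin kinase subunit Dbf4 at 1.27 ± 0.32 (adjusted p = 0.418) and the clamp loader subunit Rfc3 at -0.69 ± 0.21 (adjusted p = 0.488). For comparison, the proliferation marker Mki67 was at 1.29 and 1.26 at 36 h (Mxcre-, then Mxcre+) and at 4.48 and 3.37 at 48 h, and the topoisomerase Top2a, used in S phase and mitosis, at -0.93 and -1.66 and then at 1.07 and -0.14. Their differences of 2.65 ± 0.59 (adjusted p = 0.35) and 1.76 ± 0.31 (adjusted p = 0.237) did not pass either.

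The additive limma model treated the genotypes as the repeat of each time, with 3 residual degrees of freedom, so its p measures how alike a time difference was in both genotypes. The counts rest on few arrays: at 36 h the number that rose was 0 without the Mxcre+ 0 h array or either 36 h array, 1 without the Mxcre- 0 h array, 3 without either 24 h array and 16 without either 48 h array. At 48 h it was 0 without the Mxcre- 48 h array, 4 without the Mxcre+ 48 h array, 3 and 2 without the Mxcre- and Mxcre+ 0 h arrays, 12 without either 24 h array and 15 without either 36 h array. Over all tested genes calls fell in each of these fits too, so the loss was not particular to the listed genes. The medians of the listed genes stayed between 1.38 and 1.90 at 36 h and between 1.20 and 1.85 at 48 h. With no filter on dim genes 13 rose at 36 h (506 of all 18316 genes). When genotype had its own early and late terms 11 did (124 of all 14142 tested genes). After normexp background correction 0 rose at 36 and at 48 h, with medians of 0.96 and 0.88. Of all 14142 tested genes 20 and 71 rose there, against 1145 and 1169 in the main fit.

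**Figure D1:**
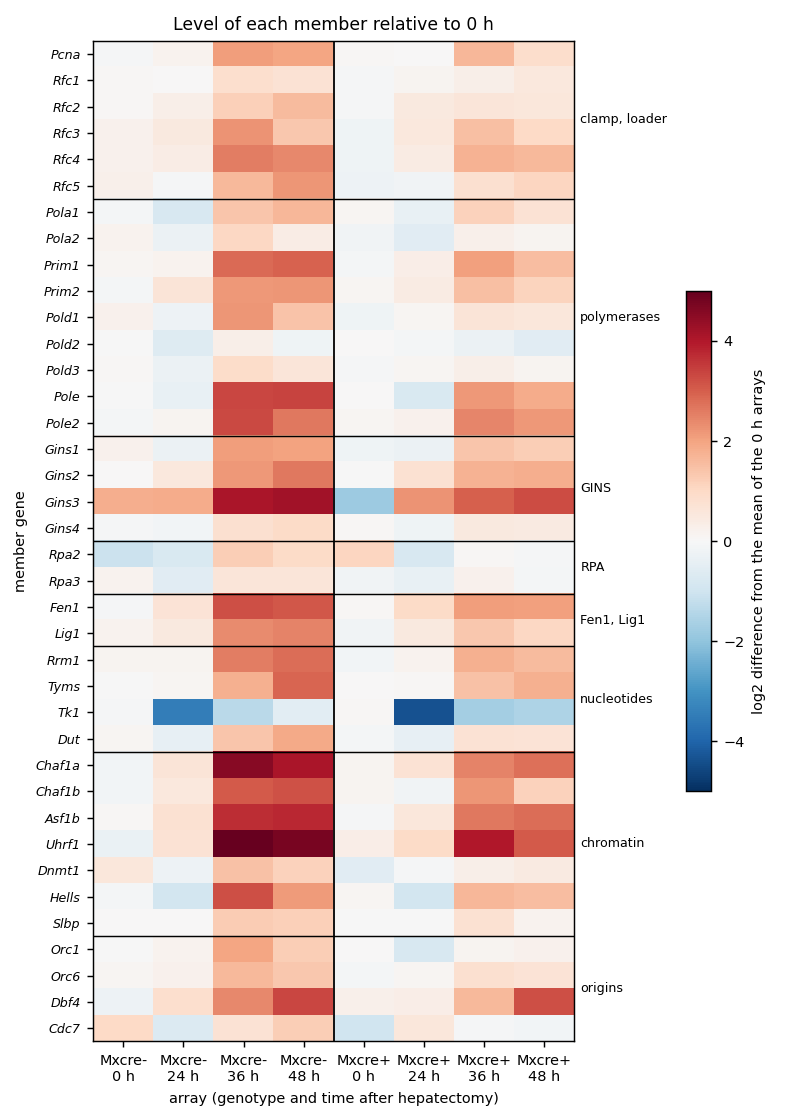
Level of each of the 38 measured genes (rows, by role) on each of the 8 arrays (columns), as the log2 difference from the mean of that gene's 2 arrays at 0 h. The arrays of 36 and 48 h are red in most rows, with a median of 2.10 and 2.00 in Mxcre- liver and of 1.37 and 1.03 in Mxcre+ liver, and Tk1 is blue after 0 h.

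The comparison of the genotypes asks how far these genes came on without Survivin. Within the 36 h pair and within the 48 h pair, all 38 genes were lower in Mxcre+ than in Mxcre- liver, where 55.9% and 53.7% of all tested genes were lower (after normexp correction alone, 32 and 30 of the 38). The median difference of the listed genes was -0.79 at 36 h (1.73-fold) and -0.98 at 48 h (1.98-fold), against -0.05 and -0.03 over all tested genes. A 2-fold or larger deficit was found for 11 genes at 36 h (5.14% of all tested genes) and 18 at 48 h (4.74%), led by the CAF-1 subunits Chaf1a at 36 h (4.23-fold) and Chaf1b at 48 h (4.16-fold). At 0 and 24 h the medians were -0.08 and 0.03, with 21 and 17 genes lower (52.7% and 48.5% of all tested genes). At 0 h, 3 genes were 2-fold or more lower (Gins3, Dnmt1 and Cdc7; 4.41% of all tested genes) and 1, Rpa2, higher (1.8%). At 24 h, 0 were lower by as much (2.75%) and 1, Cdc7, higher (1.48%). At 36 and 48 h, 0 were higher by as much (2.56% and 3.57%). These single pairs have no test. Both late pairs also differed in Y-linked signal, given below, which cannot be told apart from genotype there. Orc1 is counted as lower at 36 and 48 h. It passed the filter on dim probes only through the late Mxcre- arrays, where it is high, and so had to differ. Of the 32 genes above background on all arrays, all 32 were lower at 36 h and at 48 h, with medians of -0.75 and -1.02.

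Against the 0 h array of its own genotype, a gene's level was higher for 36 of the 38 genes at 36 h and at 48 h in Mxcre- liver, and for 35 at both times in Mxcre+ liver. The median of these differences was 2.00 at 36 h and 1.98 at 48 h in Mxcre- liver and 1.39 and 1.01 in Mxcre+ liver. Over all tested genes the medians were -0.04 and -0.07 in Mxcre- liver and -0.04 and -0.06 in Mxcre+ liver. The difference was smaller in Mxcre+ than in Mxcre- liver for 36 listed genes at 36 h and for 33 at 48 h. The shares of all tested genes for these counts were not computed, and each count rests on 1 array at 0 h per genotype. For 35 of the 38 genes both late Mxcre+ arrays lay below both late Mxcre- arrays, which held for 25.3% of all tested genes. The exceptions were Rfc3, Tyms and Dbf4. Orc1, 1 of the 35, passed the filter only through the late Mxcre- arrays and so had to differ. In all, 6 genes (Rfc5, Pola2, Gins1, Asf1b, Slbp and Orc6) were lower in Mxcre+ liver in all 4 pairs, where 9.27% of all tested genes were.

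**Figure D2:**
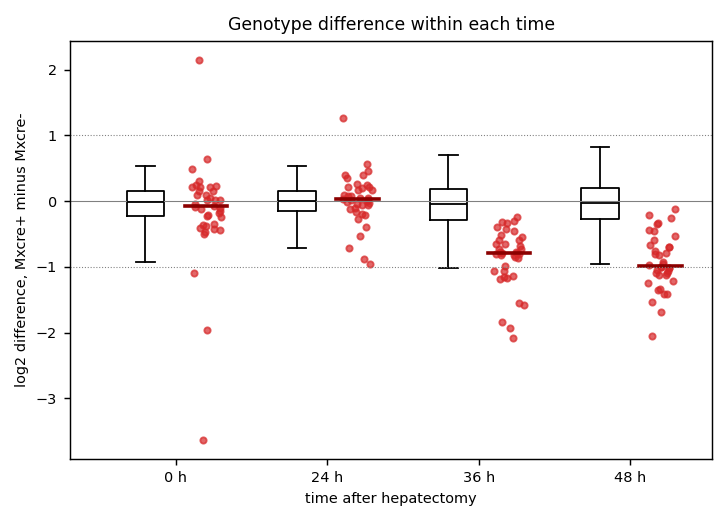
Log2 difference of Mxcre+ minus Mxcre- liver within each time, for all 14142 tested genes (box: quartiles and median, whiskers: 5th and 95th percentile) and for the 38 listed genes (points, with a bar at their median). The points centre on -0.08 and 0.03 at 0 and 24 h and lie wholly below 0 at 36 and 48 h, with medians of -0.79 and -0.98 (after normexp correction alone, 32 and 30 of the 38 lie below 0); dotted lines mark 2-fold.

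No gene passed over all 14142 genes in any of the 4 genotype comparisons fitted with limma; with an intensity trend in the variance 4 genes, none of them listed here, passed as lower over 36 and 48 h, and normexp correction gave many calls (3973 higher and 1335 lower there). Over the 36 and 48 h pairs together, the difference of the 38 genes ran from -1.81 to -0.37, with a median of -0.85 (all tested genes, -0.04), and all 38 were below 0, as were 55.6% of all tested genes (after normexp correction alone, Rfc3, Pola2, Pole2, Orc1, Dbf4 and Cdc7 were above 0). At an unadjusted p under 0.05, 27 of the 38 were lower, against 7.71% of all tested genes. Orc1, counted in these values, passed the filter only through the late Mxcre- arrays, where it is high; of the 32 genes above background on all arrays, all 32 were below 0 and 23 were lower at an unadjusted p under 0.05. The smallest adjusted p, 0.297, was shared by Uhrf1 (-1.81 ± 0.16), Chaf1a (-1.71 ± 0.23), the catalytic polymerase epsilon subunit Pole (-1.34 ± 0.18), the flap nuclease Fen1 (-1.10 ± 0.11) and Asf1b (-1.01 ± 0.11). When genes were set 2-fold apart over 36 and 48 h in simulated data, 0% were detected, and 74% when set 4-fold apart. The lack of calls here thus cannot tell a 2-fold deficit from none. Over the 0 and 24 h pairs the median was -0.05, 25 of the 38 were below 0 (52.0% of all tested genes) and 0 were lower or higher at an unadjusted p under 0.05 (2.72% of all tested genes were lower). The mean over the 4 times was below 0 for all 38 (56.3% of all tested genes), with a median of -0.47, 10 genes at an unadjusted p under 0.05 (4.38%) and a smallest adjusted p of 0.751.

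The difference between the late and the early genotype difference was tested as an interaction. Its median over the 38 genes was -0.75 (all tested genes, -0.04), 37 were below 0 (54.4% of all tested genes; Gins3 was the exception), and 18 were below 0 at an unadjusted p under 0.05 (4.2%). None passed, the smallest adjusted p being that of Uhrf1 (-2.24 ± 0.23, adjusted p = 0.462). When genes were altered 4-fold in simulated data, the interaction test detected 0% of them, and at 8-fold it detected 83.5%. The lack of calls therefore cannot decide whether interactions of 4-fold or less were present. With early and late genotype terms the model had 2 residual degrees of freedom, and the late estimate rests on 4 arrays of 1 slide. After normexp correction alone, 24 of the 38 were called lower in the late genotype difference, not the interaction, and 2, Pola2 and Orc1, higher. Of all 14142 tested genes, 1335 were called lower and 3973 higher there. With quantile normalization added to that correction the pair medians were -0.50 and -0.64 and all 38 were lower in both pairs.

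**Figure D3:**
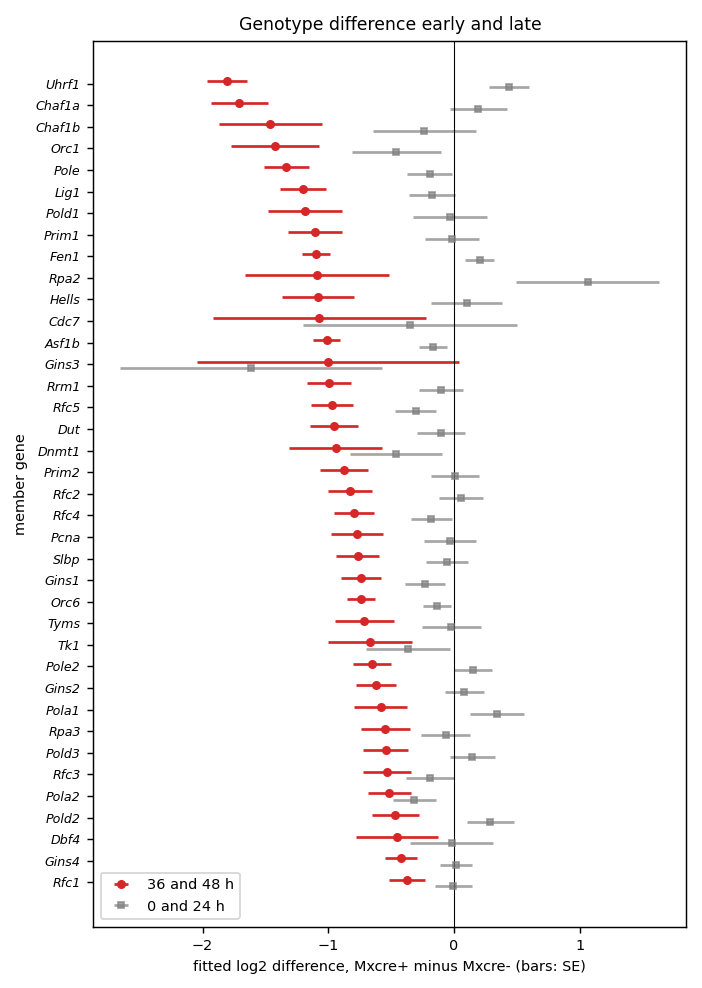
Fitted log2 difference of Mxcre+ minus Mxcre- liver for each of the 38 genes over 36 and 48 h (red circles) and over 0 and 24 h (grey squares), with bars of 1 SE from limma, ordered by the late value. Late values run from -1.81 (Uhrf1) to -0.37 (Rfc1) and early ones lie around a median of -0.05; after normexp correction alone the late values of Rfc3, Pola2, Pole2, Orc1, Dbf4 and Cdc7 were above 0.

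The 4 late arrays also differed in other respects. Transcripts of 4 Y-linked genes (Uty, Kdm5d, Ddx3y and Eif2s3y) had a mean level of -1.49 and -0.69 on the Mxcre- arrays of 36 and 48 h, against -6.40 and -6.57 on the Mxcre+ arrays of those times. They were at -6.33 and -6.04 on the 0 h arrays and at -0.79 and -1.30 on the 24 h arrays (Mxcre-, then Mxcre+). Among markers of other cells, neutrophil genes (9 of 10 measured) moved the other way from the replication genes. Their median pair difference was -3.14, -0.92, 1.80 and 2.70 at 0, 24, 36 and 48 h, and they were lower in Mxcre+ liver for 9, 7, 2 and 0 of 9 genes. Their summed level was 6.08, 5.81, 5.0 and 4.67 in Mxcre- liver and 3.05, 4.87, 6.14 and 6.51 in Mxcre+ liver. Y-linked signal thus also set both 24 h arrays apart from both 0 h arrays. It and time cannot be told apart in that comparison. At 36 and 48 h Y-linked signal set both Mxcre- arrays apart from both Mxcre+ arrays. The pairs of 0 and 24 h were not split in this way. Y-linked signal and genotype thus cannot be told apart in the late genotype differences or in late minus early. From 0 h to 36 and 48 h it was higher in Mxcre- liver and not in Mxcre+ liver. The part of sex-linked signal and of neutrophils in the differences of time and genotype was not tested.

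The other cell type markers differed less by their medians. The median pair difference at 36 and 48 h was 0.78 and 0.30 for macrophages, -0.31 and -0.59 for T and NK cells (Ncr1 was above background on no array), -0.73 and -0.24 for B cells (Pax5 and Blk on none) and -0.07 and -0.37 for erythroid cells (Epb42 on none). For endothelial cells it was 0.01 and -0.06, for stellate cells 0.11 and -0.60, and for cholangiocytes -0.42 and 0.20 (Cftr on none). The summed level of the cholangiocyte markers was 4.43 and 5.41 at 36 and 48 h in Mxcre- liver and 3.77 and 3.63 in Mxcre+ liver, lower in Mxcre+ liver like the replication genes, and its part in the late differences was not tested. Hepatocyte markers (8 of 10 measured, all above background on all arrays, summed level 11.24 to 11.59) differed by -0.13 and -0.15. In whole liver, fewer cells of a type and less RNA per cell cannot be told apart.

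The sliding clamp and its loader came on at 36 h in 4 of 6 genes, Pcna and the loader subunits Rfc3, Rfc4 and Rfc5, and the same 4 were called at 48 h. Pcna, the ring that tethers the polymerases to DNA, was at 1.95, 2.17, 4.09 and 3.99 in Mxcre- liver at 0, 24, 36 and 48 h and at 2.04, 2.01, 3.64 and 2.89 in Mxcre+ liver. All 4 late arrays were above all 4 early ones, and at 48 h the Mxcre+ level lay between the early and the late Mxcre- levels. The rise at 36 h was 1.87 ± 0.30 (3.66-fold, adjusted p = 0.0289), and the late genotype difference was -0.77 ± 0.21 (adjusted p = 0.358).

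Rfc5 was at 2.09, 1.79, 3.47 and 4.03 in Mxcre- liver and at 1.59, 1.68, 2.65 and 2.90 in Mxcre+ liver, and had the largest late genotype difference of the loader, -0.97 ± 0.17 (adjusted p = 0.334). Rfc1, the large loader subunit, was at 1.88, 1.87, 2.67 and 2.56 against 1.78, 1.96, 2.13 and 2.36, and had the smallest late difference of all 38 genes, -0.37 ± 0.15 (adjusted p = 0.406). Its late arrays were still above its early ones, but the difference of 36 h from 0 h, 0.57 ± 0.18, did not pass (adjusted p = 0.093). Rfc2 stood at 3.60, 3.83, 4.75 and 5.15 in Mxcre- liver, while in Mxcre+ liver it was at 3.51, 4.03, 4.16 and 4.10, so that its Mxcre+ level was almost flat from 24 h on (36 h against 0 h over both genotypes, 0.90 ± 0.33, adjusted p = 0.117). Rfc3 and Rfc4 rose by 1.86 ± 0.21 and 2.16 ± 0.25 at 36 h (adjusted p = 0.0187 and 0.0189). In Rfc3 the genotypes overlapped late, with -0.65 and -1.55 in Mxcre- liver and -1.39 and -1.88 in Mxcre+ liver, and its difference of 48 h from 0 h, 1.17, was -0.30 after normexp correction.

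Among the 9 polymerase and primase genes, 4 rose at 36 h and at 48 h, the primase subunits Prim1 and Prim2 and the polymerase epsilon subunits Pole and Pole2. The polymerase alpha subunits Pola1 and Pola2 and the polymerase delta subunits Pold1, Pold2 and Pold3 did not pass at either time. Pole, which makes most of the leading strand, was at -1.06, -1.44, 2.27 and 2.33 in Mxcre- liver and at -1.05, -1.83, 1.13 and 0.80 in Mxcre+ liver. The genotypes were alike at 0 h and did not overlap late, and the late genotype difference, -1.34 ± 0.18 (2.52-fold), was the largest of the polymerase genes. Its rise at 36 h was 2.76 ± 0.40 (6.77-fold, adjusted p = 0.025).

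Prim1, the catalytic primase subunit, was at 0.08, 0.14, 2.81 and 2.92 in Mxcre- liver and at -0.14, 0.31, 2.02 and 1.51 in Mxcre+ liver. It rose by 2.44 ± 0.40 at 36 h (adjusted p = 0.0289) and its genotype deficit was 1.74-fold at 36 h and 2.66-fold at 48 h. Its partner Prim2 rose by 1.83 ± 0.33 (adjusted p = 0.0329). Pole2 was above background on the 4 late arrays alone, at -1.05 and -1.71 in Mxcre- liver and -1.91 and -2.17 in Mxcre+ liver, so its level was at least 7.10-fold higher at 36 h and at least 5.16-fold higher at 48 h than at 0 h. Its differences from 0 h were -0.03 and -0.42 after normexp correction.

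Polymerase delta subunits were less uniform. Pold1, the catalytic subunit, was at 0.28, -0.17, 2.27 and 1.49 in Mxcre- liver and at -0.13, 0.19, 0.72 and 0.66 in Mxcre+ liver. Its level at 36 h was thus 2.92-fold lower in Mxcre+ liver, and its difference from 0 h was 1.41 ± 0.45 over both genotypes (adjusted p = 0.0934). Pold2, an accessory subunit, was at -0.88, -1.53, -0.58 and -1.08 against -0.86, -0.97, -1.17 and -1.43. Early and late arrays overlapped, and 36 h differed from 0 h by -0.01 ± 0.30 (adjusted p = 0.989). Pold3, another accessory subunit, gave different answers by probe. The brightest was at -0.10 for 24 h against 0 h, and its other 2 probes at 0.83 and 0.92. For 36 h against 0 h the brightest was at 0.60 and the others at 1.37 and 1.22. For the late genotype difference it was at -0.54 and the others at 0.13 and -0.03. The other probes were not tested singly, so that Pold3 did not pass holds for the brightest probe.

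Pola1 and Pola2, of the polymerase that extends the primers, had 36 h differences from 0 h of 1.27 ± 0.35 (adjusted p = 0.0711) and 0.64 ± 0.17 (adjusted p = 0.0673). Pola1 was at -1.62, -2.32, -0.11 and 0.14 in Mxcre- liver and at -1.39, -1.87, -0.36 and -0.78 in Mxcre+ liver. Its late arrays were all above its early ones, and its late genotype difference was -0.58 ± 0.21 (adjusted p = 0.397). Pola2, near background, was at -3.59, -4.06, -2.75 and -3.39 against -3.96, -4.33 (not well above background), -3.52 and -3.64. Its early and late arrays overlapped.

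In the GINS complex, Gins1 and Gins2 rose at both late times and Gins3 and Gins4 did not pass. Gins1 was at -0.13, -0.65, 1.75 and 1.64 in Mxcre- liver and at -0.59, -0.65, 1.02 and 0.88 in Mxcre+ liver, a rise of 1.74 ± 0.22 at 36 h (adjusted p = 0.0218). Gins2 rose by 1.97 ± 0.27 at 36 h and by 2.24 ± 0.27 at 48 h (adjusted p = 0.023 and 0.0144). Gins4, at 1.27, 1.17, 2.13 and 2.28 against 1.36, 1.11, 1.81 and 1.75, had late arrays above all early ones but a difference of 0.65 ± 0.19 at 36 h (adjusted p = 0.0763) and the smallest late genotype difference of the complex, -0.42 ± 0.13.

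Gins3 was at -3.25, -3.22, -1.0 and -0.87 in Mxcre- liver and at -6.87, -2.83, -2.06 and -1.82 in Mxcre+ liver. The Mxcre+ 0 h array stood apart from the other 3 early ones and was not well above background, so the 0 h deficit there was at least 3.62-fold. That 1 array widened every fit of the gene: its late genotype difference was -1.01 ± 1.04 (adjusted p = 0.698), although the pairs of 36 and 48 h differed by -1.06 and -0.95. With dim values raised to the background level the gene passed as higher at 36 h (2.65, adjusted p = 0.0334) and at 48 h (2.84, adjusted p = 0.0256).

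Of the subunits of RPA, which covers single-stranded DNA, neither measured one passed at 36 or 48 h (0 at an unadjusted p under 0.05), and early and late arrays overlapped in both. Rpa2 was at -1.47, -1.17, 0.84 and 0.55 in Mxcre- liver and at 0.68, -1.19, -0.33 and -0.46 in Mxcre+ liver. Its Mxcre+ 0 h array stood apart from the other early arrays, at 2.15 above the Mxcre- one, and the late pairs were 2.24-fold and 2.02-fold lower. The late genotype difference was -1.09 ± 0.57 (adjusted p = 0.479). Rpa3, the small subunit, was at 0.71, -0.05, 1.13 and 1.15 against 0.36, 0.17, 0.74 and 0.45, with a difference of 0.41 ± 0.24 at 36 h (adjusted p = 0.264).

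Both genes that finish the lagging strand rose at 36 and 48 h. Fen1, which trims the flap of each piece, was at -2.21, -1.45, 1.10 and 0.96 in Mxcre- liver and at -2.06, -1.19, -0.03 and -0.10 in Mxcre+ liver. Its early levels were higher in Mxcre+ liver and its late ones lower, by nearly the same amount at 36 h (2.20-fold) and 48 h (2.09-fold). It rose by 2.67 ± 0.43 at 36 h (6.37-fold, adjusted p = 0.0285). Lig1, the ligase that seals the pieces, was at 1.19, 1.48, 3.35 and 3.48 against 0.82, 1.50, 2.36 and 2.06. In Lig1 the genotype deficit was 1.98-fold at 36 h and 2.67-fold at 48 h, with a late difference of -1.20 ± 0.18 (adjusted p = 0.314) and a rise of 1.85 ± 0.37 at 36 h (adjusted p = 0.0389).

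The nucleotide enzymes split. Rrm1, the large subunit of ribonucleotide reductase, which makes deoxynucleotides, and Tyms, which makes thymidylate, rose at both late times. Tk1, which salvages thymidine, fell at 24 and 36 h, and Dut, which removes dUTP, did not pass. Rrm1 was at 0.50, 0.51, 2.93 and 3.17 in Mxcre- liver and at 0.26, 0.54, 2.16 and 1.95 in Mxcre+ liver. The genotypes met at 24 h and were apart late, with a rise of 2.17 ± 0.33 at 36 h (adjusted p = 0.0259) and a late genotype difference of -1.0 ± 0.17 (adjusted p = 0.334), the largest of the nucleotide genes.

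Tyms was at 1.39, 1.51, 3.16 and 4.31 in Mxcre- liver and at 1.40, 1.46, 2.85 and 3.19 in Mxcre+ liver. The Mxcre+ level at 48 h was about that of Mxcre- at 36 h, and the deficit was 1.23-fold at 36 h and 2.18-fold at 48 h. Tyms rose by 1.61 ± 0.31 at 36 h and by 2.35 ± 0.31 at 48 h (adjusted p = 0.0365 and 0.0165). Dut was at 1.54, 1.00, 2.82 and 3.33 against 1.31, 1.02, 2.14 and 2.09. Its late arrays were above its early ones, its differences from 0 h of 1.06 ± 0.33 and 1.28 ± 0.33 did not pass (adjusted p = 0.0867 and 0.0573), and its deficit was 2.36-fold at 48 h.

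Tk1 took a course of its own. It was at 3.89, 0.49, 2.60 and 3.43 in Mxcre- liver and at 4.04, -0.39, 2.26 and 2.43 in Mxcre+ liver. The 0 h arrays were the highest and the 24 h arrays the lowest in each genotype, and by 48 h the Mxcre- level had nearly returned. At 24 h it fell by 3.91 ± 0.31 on the log2 scale (15.1-fold, adjusted p = 0.0179) and at 36 h it stood at -1.53 ± 0.31 against 0 h (adjusted p = 0.04). The 24 h call ended without the Mxcre+ 0 h array, either 24 h array or either 36 h array, and the 36 h call without any 1 of the 8. Calls over all tested genes fell in these fits too. The neighbouring gene Afmid, a kynurenine pathway enzyme that overlaps Tk1 in the RefSeq table and was looked up after the course of Tk1 had been seen, was at 3.58, 0.05, 0.92 and 1.05 in Mxcre- liver and at 3.72, -1.28, 0.44 and 0.61 in Mxcre+ liver. At 24 h it fell by 4.26 ± 0.35 on the log2 scale (19.2-fold, adjusted p = 0.0179), and stayed low. The part of Afmid in the signal of Tk1 was not tested, and the next gene on chromosome 11 is Birc5. Both 24 h arrays also differed from both 0 h arrays in Y-linked signal, which cannot be told apart from time here.

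**Figure D4:**
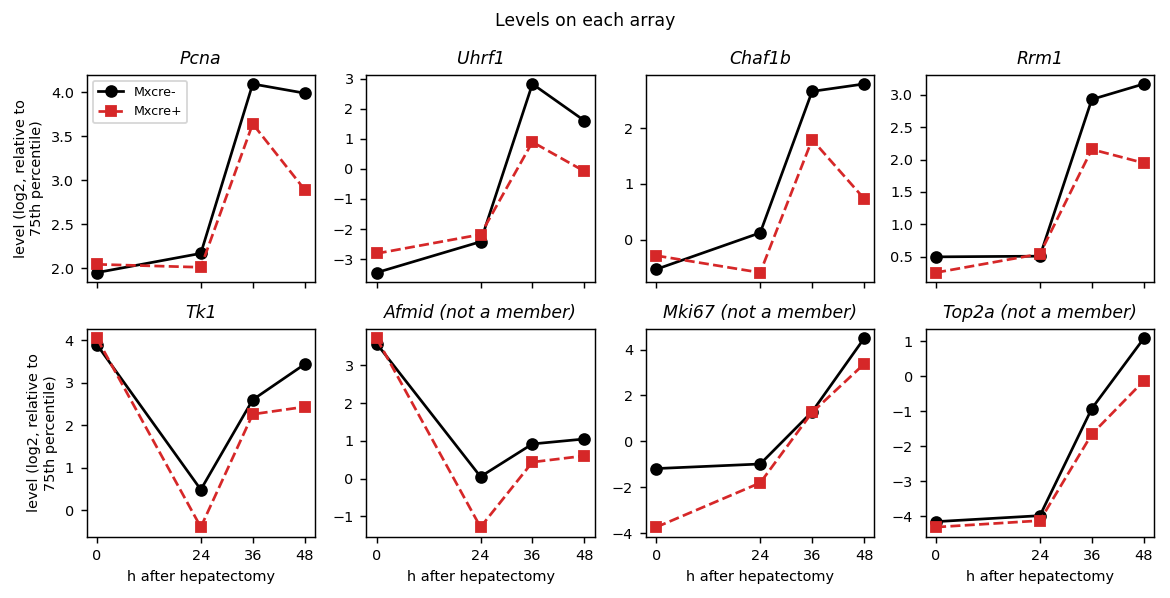
Levels (log2, relative to the array's 75th percentile; each panel has its own scale) against hours after hepatectomy for 5 listed genes and for Afmid, Mki67 and Top2a, 1 point per array, black circles for Mxcre- and red squares for Mxcre+ liver. Pcna, Uhrf1, Chaf1b and Rrm1 step up between 24 and 36 h, Tk1 and Afmid drop at 24 h, and Mki67 and Top2a are highest at 48 h.

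Chromatin assembly and maintenance genes held the largest rise at 36 h and the 3 largest late genotype differences of the 38 genes (Uhrf1, Chaf1a and Chaf1b). Of 7, 5 rose at 36 h (Chaf1a, Chaf1b, Asf1b, Uhrf1 and Hells) and 3 at 48 h (Chaf1a, Asf1b and Uhrf1), and the median late genotype difference was -1.08. Uhrf1, which brings Dnmt1 to newly copied DNA, was at -3.45, -2.42, 2.82 and 1.60 in Mxcre- liver and at -2.81, -2.18, 0.89 and -0.08 in Mxcre+ liver. It was higher in Mxcre+ liver at 0 and 24 h and 3.81-fold and 3.21-fold lower at 36 and 48 h. It rose 31.7-fold at 36 h and 14.8-fold at 48 h over both genotypes (adjusted p = 0.0252 and 0.0317).

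Chaf1a and Chaf1b are the subunits of CAF-1, which sets new histones behind the fork. Chaf1a was at -3.18, -2.40, 1.54 and 1.05 in Mxcre- liver and at -2.88, -2.32, -0.54 and -0.28 in Mxcre+ liver, and Chaf1b at -0.53, 0.12, 2.66 and 2.79 against -0.29, -0.59, 1.79 and 0.74. The gap was widest at 36 h for Chaf1a (4.23-fold) and at 48 h for Chaf1b (4.16-fold). The rises at 36 h were 3.53 ± 0.64 and 2.64 ± 0.53 (adjusted p = 0.0332 and 0.0397), and at 48 h that of Chaf1b, 2.17 ± 0.53, did not pass (adjusted p = 0.0536).

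Asf1b, which hands histones to CAF-1, was at -1.91, -1.23, 1.72 and 1.78 in Mxcre- liver and at -2.06, -1.42, 0.66 and 0.81 in Mxcre+ liver. It held nearly the same level at 36 and 48 h in each genotype, with deficits of 2.09-fold and 1.95-fold. Hells, a remodeller that helps DNA methylation, was at -3.62, -4.42, -0.27 and -1.38 against -3.41, -4.43, -1.85 and -1.96, with both 24 h arrays not well above background. It rose by 2.45 ± 0.46 at 36 h (adjusted p = 0.0346), and its 48 h value of 1.85 ± 0.46 did not pass (adjusted p = 0.0545; 0.0454 with dim values raised to the background level).

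Dnmt1, the maintenance methyltransferase, did not follow Uhrf1. It was at -0.92, -1.72, -0.01 and -0.33 in Mxcre- liver and at -2.02, -1.55, -1.19 and -1.03 in Mxcre+ liver. Early and late arrays overlapped, since the Mxcre- 0 h array was above both late Mxcre+ arrays, and the difference at 36 h was 0.87 ± 0.36 (adjusted p = 0.152). Slbp, which binds the stem-loop of histone mRNA, was at 1.55, 1.54, 2.78 and 2.70 against 1.47, 1.50, 2.26 and 1.68. Its late arrays were above all early ones, with a difference of 1.00 ± 0.28 at 36 h (adjusted p = 0.0695), and at 48 h its Mxcre+ level was close to the early ones.

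Among 4 genes that mark or fire origins, Orc6 and Dbf4 rose at both late times and Orc1 and Cdc7 did not pass. Orc6, a subunit of the origin recognition complex, was at 0.44, 0.57, 1.97 and 1.69 in Mxcre- liver and at 0.27, 0.47, 1.17 and 1.02 in Mxcre+ liver. The genotypes did not overlap late (-0.74 ± 0.11, adjusted p = 0.314), and the rise at 36 h was 1.21 ± 0.22 (adjusted p = 0.0338). Orc1, the largest subunit, was above background only on the Mxcre- arrays of 36 h (-3.04) and 48 h (-3.77). It was at least 2.57-fold and at least 2.01-fold lower in Mxcre+ liver there. It passed the filter on dim probes only through these arrays and so had to differ.

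Dbf4 activates the kinase Cdc7, which fires origins. Dbf4 was at -4.98 (not well above background), -3.90, -2.33 and -1.39 in Mxcre- liver and at -4.50, -4.42 (not well above background), -3.11 and -1.51 in Mxcre+ liver. It was higher at 48 h than at 36 h in both genotypes, and the genotypes differed by -0.12 at 48 h. Its rises were 2.02 ± 0.32 at 36 h and 3.29 ± 0.32 at 48 h (adjusted p = 0.0284 and 0.0114). With its dim arrays raised to the background level they were 1.71 and 2.99, and after normexp correction -0.30 and -0.01. Cdc7 itself was at -2.09, -3.77, -2.34 and -1.86 against -4.05, -2.51, -3.13 and -3.21. It showed no step in time, its early and late arrays overlapped, and its genotype difference was -1.96 at 0 h and 1.27 at 24 h.

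Other genes of the same pathways were taken from lists of licensing and helicase, fork, nucleotide and chromatin genes, of which 66 of 68 were tested. At 36 h against 0 h, 24 of the 66 rose and 2 fell, where 8.1% of all tested genes rose and 8.15% fell. The rises were 8 of 17 licensing and helicase genes, 7 of 16 fork genes, 5 of 16 chromatin genes and 4 of 17 nucleotide genes. Cdc6 and Dscc1, in the licensing and fork lists, passed the filter only through their late arrays, where they are high. They so had to differ in time. How many others of these lists passed it in this way was not examined. At 48 h, 25 rose and 3 fell (8.27% and 9.34% of all tested genes). At 24 h, 2 rose and 4 fell, near the shares over all tested genes (4.59% and 5.09%). Over 36 and 48 h their genotype difference had a median of -0.45, with 55 of 66 below 0 (55.6% of all tested genes). It was below 0 for 16 of 17 licensing and helicase genes (median -0.99), 11 of 16 fork genes (median -0.72), 13 of 17 nucleotide genes (median -0.42) and 15 of 16 chromatin genes (median -0.16). None of the 66 passed, in a comparison that also detected 0% of simulated 2-fold differences. At an unadjusted p under 0.05, 32 were lower and 1 higher, against 1090 lower and 702 higher of all 14142 tested genes.

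In the licensing and helicase list the largest late genotype differences were those of the loading factor Cdc6 (-1.69 ± 0.50), the helicase subunit Mcm5 (-1.51 ± 0.36) and the initiation factor Mcm10 (-1.5 ± 0.13). In the fork list they were Dna2, a nuclease and helicase (2.58 ± 1.01 as fitted), the polymerase alpha adaptor Wdhd1 (-1.47 ± 0.32) and the cohesion factor Dscc1 (-1.43 ± 0.41). For Dna2 the Mxcre- arrays of 0, 24 and 48 h were not above background. Its difference was 1.71 with the 48 h array raised to the background level. Cdc6 and Dscc1 were above background on the 4 late arrays alone. The nucleotide list was led by Dck (-0.69 ± 0.16), which salvages deoxycytidine, and the purine enzyme Ppat (-0.65 ± 0.13). The chromatin list was led by lamin B1, Lmnb1 (-0.69 ± 0.19), the histone gene H2ax (-0.67 ± 0.23) and the histone chaperone Rbbp4 (-0.60 ± 0.14). The adjusted p of these 11 genes was 0.297 to 0.406.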

How the data were processed

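Members, gene lists and the late genotype and interaction comparisons were chosen with earlier results of these data known. The deposited scanner files hold spot intensity, which, per the file headers, was background-subtracted and spatially detrended by Feature Extraction 10.7.3.1 (10.7 per the submitters' processing notes), without normalization between arrays. The authors' deposited matrix holds log2 values whose scale is not stated; each column followed log2 of its own array's signal (r at least 0.999; medians 5.50 to 5.51) and served as an alternative.

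Control and outlier spots were left out. Of 41174 probes, 118 without a usable spot on some array were dropped and 26839 named by accession (RefSeq, GRCm38.p6). Genes above background on 2 or more of the 8 arrays were tested with limma 3.58.1 in R 4.3.3, with Benjamini-Hochberg adjustment over all 14142 genes at 0.05. The fits were tried on simulated data with 200 altered genes. The noise was drawn with the residual spread of the additive model, in which a change of the genotype difference with time counts as noise. The detected shares hold for that spread and that number of altered genes. With a 2-fold alteration 0% were detected, except in the genotype mean of 4 times (63.5%). With a 4-fold alteration the share was 78.5% to 87% between times and 67% to 91% between genotypes. For the interaction it was 0%. "At least" folds set dim arrays at the lowest level well above background. Named genes were the members, the 3 largest late differences of each other list (1 of them is not reported here), Birc5 and Mki67; Top2a and Afmid were added after their values were seen. Alternatives changed the normalization, background correction (offset 50, on median signals in place of the planned mean signals, a column not used here), filter, probe rule, variance trend and arrays; normexp with quantile normalization was added after seeing the data. The number of arrays limits the precision.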

Additional observations from a re-analysis of the deposited data

How the results depend on the processing

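No paired analysis was possible because each genotype and time had 1 array and the labels carry no replicate numbers; the time term of the fits already sets the genotypes side by side within each time. Quantile normalization, the deposited table, the mean over probes, floored dim values, the stricter filter and the intensity trend left every count of the 38 genes, and every median not near 0, within 1.5 times of its main value. Normexp background correction with the 75th percentile gave 0 genes lower at 24 h, 0 higher and 0 lower at 36 h (median 0.96) and 0 higher at 48 h (median 0.88). Over all 14142 tested genes it gave 8 lower at 24 h, 20 higher and 3 lower at 36 h and 71 higher at 48 h. It called 24 lower and 2 higher in late Mxcre+ liver (1335 lower and 3973 higher of all 14142 tested genes). It put 0 and 17 genes past a 2-fold deficit at 0 and 36 h (shares of all tested genes not computed). It reversed Pole2 (-0.0328 at 36 h, -0.42 at 48 h), Dbf4 (-0.30 and -0.0133) and Rfc3 (-0.30 at 48 h) against 0 h, and the late genotype difference of Rfc3 (0.18), Pola2 (0.86), Pole2 (0.41), Orc1 (0.82), Dbf4 (0.46) and Cdc7 (0.58); the cause was not tested. Of 5424 single-gene values under an alternative, 219 others changed sign, none of them called in either fit. With quantile normalization added after normexp correction, the medians were 0.82 at 36 h and 0.73 at 48 h and the pair medians -0.50 and -0.64. In that setting 0, 3 and 10 genes passed a 2-fold deficit at 0, 36 and 48 h (shares of all tested genes not computed). With no filter on dim genes 13 rose and 0 fell at 36 h (506 and 432 of all 18316 genes). With early and late genotype terms in the time model 1 rose at 24 h (512 of all 14142 tested genes). In that model 11 rose and 0 fell at 36 h (124 and 30 of all tested genes).

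Leaving out 1 array at a time left 0 to 1 genes lower at 24 h, 0 to 16 higher and 0 to 0 lower at 36 h, and 0 to 15 higher at 48 h. In the comparisons of times, calls over all tested genes fell as well. The medians of the listed genes ran from -0.24 to 0.34 at 24 h and from -0.40 to 0.26 for 48 h against 36 h. They ran from -0.98 to -0.79 for the late genotype difference and from -0.85 to -0.66 for late minus early. Values that rest on arrays not above background are bounds or uncertain: Orc1, Pole2, Gins3 (Mxcre+ 0 h), Hells (24 h), Pola2 (Mxcre+ 24 h) and Dbf4 (Mxcre- 0 h and Mxcre+ 24 h).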
